A study of Mus musculus with 4 samples.

Results

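The cells described here are 231 ascites lymphocytes that carried transcripts of Rora and Il18r1 together with transcripts of a T cell. They were 231 of 6419 ascites cells kept after filtering and 231 of 13160 kept cells of the whole series. A cell was a member if it held at least 2 unique molecular identifiers (UMIs, counted transcripts) of Rora and Il18r1 combined and at least 1 of Thy1, Cd3d, Cd3e or Cd3g. It also had to lack Ncr1 and Cd79a, to hold fewer than 30 C1q UMIs per 10000, and to hold fewer than 3 UMIs of Fscn1 and fewer than 3 of Xcr1 and Clec9a combined. The members were thus chosen by their own counts of these genes, and the rule was drawn from a cluster already seen in the same cells, so the levels of Rora, Il18r1 and the other leading genes describe the cells and are not tested against other ascites cells.

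The mice were B6 mice carrying the BeCon tumour, a model of ovarian cancer by the title of the series. The treated mice received YKL-05-099, a compound that inhibits salt-inducible kinases (SIKs), and the vehicle mice received its carrier alone. Viable cells were sorted on CD45 and MHC class I, tagged with a hashtag antibody for each mouse and tissue, and run as 1 droplet library of ascites and 1 of spleen and blood. Ascites came from 4 treated mice (1 to 4) and 4 vehicle mice (1 to 4), and spleen and blood from treated mice 2 to 4 and vehicle mice 1 to 3. Dose, age and sex are not given in the sources used here. The mouse was the replicate throughout. The sort keeps only immune cells that still display MHC class I, and every mouse carried the tumour, so neither arm is a healthy baseline.

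RORα, the nuclear receptor encoded by Rora, and GATA3 are transcription factors needed for group 2 innate lymphoid cells and also used by some helper and γδ T cells. The IL-18 receptor and the IL-33 receptor ST2, encoded by Il18r1 and Il1rl1, belong to the IL-1 receptor family and let a lymphocyte answer cytokines without its antigen receptor. SIKs hold the CRTC coactivators of CREB in the cytoplasm, and CREB drives genes of the cyclic AMP response such as Crem and Pde4d. In mm10 coordinates (GENCODE vM21), Il1rl1 lies at chr1:40429570-40465415, Il18r1 directly beside it at chr1:40465552-40500854, and Il18rap, the second chain of the IL-18 receptor, at chr1:40515362-40551705, all on the plus strand. Rora lies at chr9:68653786-69388246 on the plus strand and Gata3 at chr2:9857078-9890034 on the minus strand.

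The ascites library held 134034611 gene UMIs over 13688 barcodes, of which 11112 passed the filters on genes, UMIs and mitochondrial share. The 231 cells held 1431796 UMIs, with a median of 5542 per cell (1907 to 26681). Their summed depth per mouse was 174905 to 290810 UMIs in treated mice and 83672 to 188754 in vehicle mice. A count of 3 UMIs, the limit that a count of 0 allows, is 10.3 to 17.2 CPM in a treated mouse and 15.9 to 35.9 CPM in a vehicle mouse. CPM is the gene's UMIs per 1000000 UMIs of the summed cells, and 3' chemistry counts a transcript once whatever its length. Intervals and limits of this kind cover counting error only. The 2 libraries shared 52 barcodes, and 0 of them belonged to the 231 cells.

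Most of the cells carried the transcripts of an αβ T cell. A UMI of Cd3d, Cd3e or Cd3g was found in 213 cells (92.2%), and a UMI of the T cell receptor constant regions Trac, Trbc1 or Trbc2 in 222 cells (96.1%). Trbc1 and Trbc2 share sequence, so their counts may be split between them. Of the 18 cells without a Cd3 UMI, 2 also lacked a Trac or Trbc UMI. Rora was detected in 174 cells and Il18r1 in 163, with both in 106. Exactly 2 UMIs of the pair were held by 88 cells, just inside the threshold, while 162 T-lineage cells with 1 such UMI lay just outside. Gata3 stood at 152 CPM and Ctla2a at 262 CPM in the cells just inside, against 92.4 and 147 CPM just outside, so the threshold cuts through a range of levels.

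Summed over the 231 cells, Rora was at 479 CPM, Il18r1 at 258, Gata3 at 226, Ikzf2 (Helios, an Ikaros family factor of regulatory and innate-like T cells) at 105 and Ctla2a (a cathepsin L inhibitor) at 530 CPM. The 705 other ascites T-lineage cells, which by definition held no Rora or Il18r1 UMI, had 52.8 CPM of Gata3, 23.6 of Ikzf2 and 68.8 of Ctla2a. In 1092 ascites B cells these 3 genes were at 1.2, 0.7 and 2.9 CPM. All 5 markers named for the cells were thus detected, and of these the rule used Rora and Il18r1.

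The word innate-like was borne out in part only. Zbtb16, the PLZF factor of NKT and other innate-like T cells, was at 27.9 CPM and Klrb1c (NK1.1) at 30.7 CPM in the 231 cells. The 8 markers of NKT and innate-like αβ T cells summed to 516 CPM, against 203 CPM in the other T-lineage cells. In the T-lineage cells with 1 UMI of Rora or Il18r1 they summed to 499 CPM. Of 14 markers of group 2 innate lymphoid cells, 13 were detected. Their summed level was 738 CPM, against 254 CPM in the other T-lineage cells and 234.5 CPM in B cells. It was 1975 CPM in C1q-positive macrophages, which share some of these genes. Single mice went the other way, vehicle mouse 3 for the first list and vehicle mouse 1 for the second. The type 2 cytokine gene Il13 was at 0, which allows up to 2.1 CPM, and so were Il9 and the neuromedin receptor gene Nmur1. Since Cd3 and T cell receptor transcripts were the rule, the members are called Rora/Il18r1 T-lineage cells below.

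Markers of B cells, dendritic cells, neutrophils, mast cells and tumour cells were low. The 10 markers of NK cells and ILC1 summed to 680 CPM, against 1105 CPM in the other T-lineage cells and 407 CPM in B cells. By mouse they ranged over 340 to 871 CPM in treated and 285 to 1244 CPM in vehicle mice. Macrophage markers summed to 3012 CPM over all Rora/Il18r1 cells, against 4856 CPM in B cells. The macrophage gene Lyz2 was at 985 CPM in treated and 628 CPM in vehicle Rora/Il18r1 cells, against 1141 and 1058 CPM in treated and vehicle B cells and 10480 and 10888 CPM in the C1q-positive cells. The summed level of 9 macrophage markers was 2349 to 5087 CPM in treated mice and 2187 to 2930 CPM in vehicle mice. The highest, treated mouse 1, lay above the pooled B cells. The 6 neutrophil markers summed to 43.3 CPM in the Rora/Il18r1 cells and to 526 CPM in the other T-lineage cells. Of 8 tumour and mesothelial markers 7 were at 0, as were the mast cell and basophil genes Mcpt8, Fcer1a and Cd200r3. Whether the macrophage transcripts were free transcripts or came from doublets within a mouse was not tested. Their part in the results below was not tested either.

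**Figure D1:**
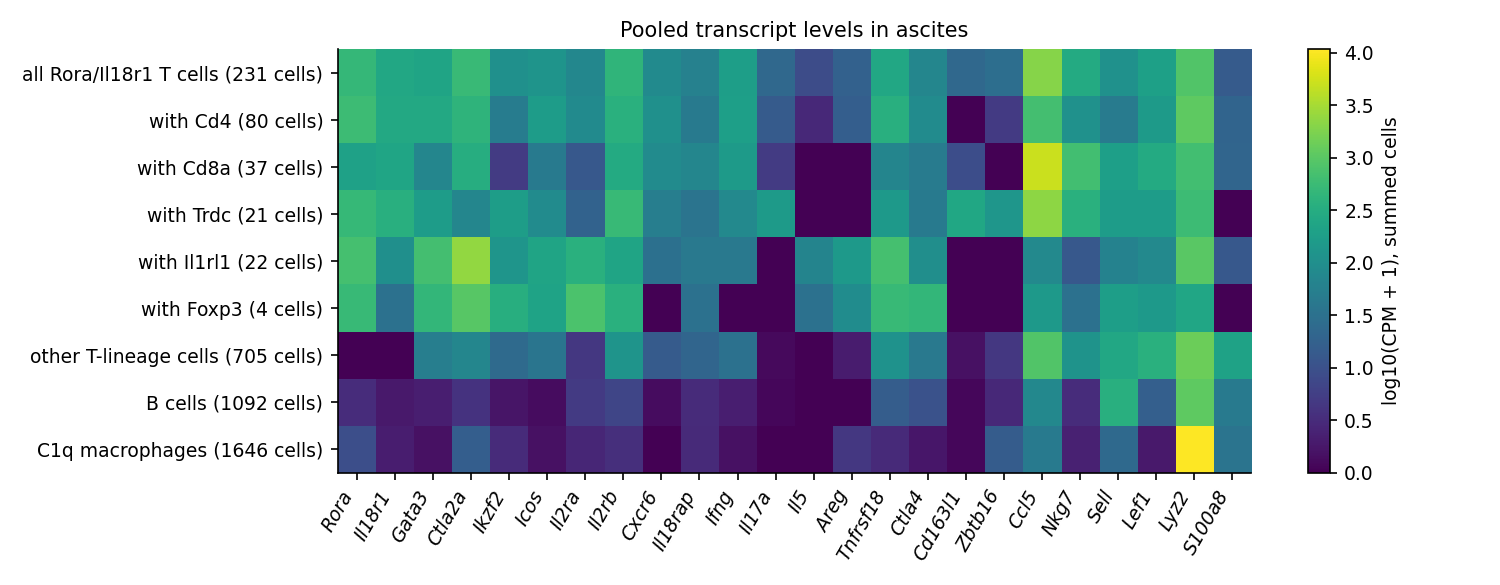
Heat map of log10(CPM + 1) for 24 genes (columns) in ascites cells summed over mice. The rows are all Rora/Il18r1 T-lineage cells, their subsets by 1 detected gene, the other T-lineage cells, B cells and C1q-positive macrophages. Gata3, Ctla2a, Il5 and Areg stand high in the Il1rl1 row, Cd163l1 and Il17a in the Trdc row, and Ccl5 in the Cd8a row.

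The population was a mixture of T cell types. Cd4, the coreceptor of helper T cells, was detected in 86 of the 231 cells (37.2%, 95% Wilson interval 31.3 to 43.6%). Cd8a, the coreceptor of cytotoxic T cells, was detected in 42 cells (18.2%, 13.7 to 23.7%). Trdc, the constant region of the γδ receptor, was detected in 22 cells (9.52%, 6.37 to 14.0%). Il1rl1 was also detected in 22 cells, 1 of which held Trdc. Foxp3, the factor of regulatory T cells, was found in 5 cells (2.16%, 0.928 to 4.97%). In B cells, which should lack these genes, the share with a UMI was 0.641% for Cd4, 0.549% for Cd8a, 0.183% for Trdc, 0.183% for Il1rl1 and 0.0916% for Foxp3 at a median of 4117.5 UMIs. Every subset thus stood above that background. None of Trdc, Foxp3, Cd4 and Cd8a was detected in 87 cells, of which 84 held a Trac or Trbc UMI.

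The subsets overlapped little, apart from Foxp3 and Il1rl1. Of the 5 Foxp3 cells, 4 held an Il1rl1 UMI, and 10 of the 22 Il1rl1 cells held a Cd4 UMI. Cd4 and Cd8a were found together in 3 cells. Of the Il1rl1 cells, 19 held a Cd3 UMI.

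Levels of some genes are given here for each subset, pooled and with no test, since each set is small. The 22 Il1rl1 cells held 671 CPM of Gata3 and 2347 CPM of Ctla2a, against 226 and 530 CPM in all Rora/Il18r1 cells. They also held the type 2 cytokine gene Il5 (65.9 CPM), the epidermal growth factor family ligand Areg (144 CPM) and Calca, which encodes calcitonin and the neuropeptide CGRP (473 CPM). The Calca transcripts came mostly from treated mouse 2, which held 283 CPM over its Rora/Il18r1 cells, against 0 to 12.7 CPM in the other treated mice. Ccl5, a chemokine gene of cytotoxic cells, was at 77.8 CPM in them, against 1994 CPM in all Rora/Il18r1 cells. Of the 22 Il1rl1 cells 20 came from treated mice, where all Rora/Il18r1 cells held 1011 CPM of Ccl5, against 3968 CPM in vehicle mice. These pooled levels therefore mix the subset with the arm.

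The 21 cells with Trdc and no Foxp3 UMI held Tcrg-C1, a γ chain constant region, at 201 CPM, and Cd163l1, a scavenger receptor of γδ T cells, at 253 CPM. The cytokine gene Il17a was at 157 CPM and Zbtb16 at 131 CPM in the Trdc cells, against 22.3 and 27.9 CPM in all Rora/Il18r1 cells. Tcrg-C1 has near-identical copies, so its level is uncertain. The 4 cells with Foxp3 and no Trdc UMI held Il2ra, the α chain of the IL-2 receptor, at 764 CPM and Tnfrsf18, the costimulatory receptor GITR, at 519 CPM. Single cells can set the levels of a set of 4.

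The 80 Cd4 cells without a Trdc or Cd8a UMI held Icos, a costimulatory receptor, at 167 CPM. The chemokine receptor gene Cxcr6 was at 103 CPM in them and Ifng, which encodes interferon γ, at 188 CPM. Over all Rora/Il18r1 cells, Icos averaged 145 CPM in treated and 59.2 CPM in vehicle mice. Cxcr6 averaged 82.7 and 79.2 CPM there and Ifng 180 and 152 CPM, so these genes were not particular to the Cd4 cells. In the 37 Cd8a cells without a Trdc or Cd4 UMI, Ccl5 reached 5126 CPM, Nkg7, a cytotoxic granule gene, 646 CPM, and Gzmk, a granzyme gene, 130 CPM. Gata3 was at 70.9 CPM and Ikzf2 at 3.9 CPM in the Cd8a cells, so they held little of the markers beside Rora and Il18r1.

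The first comparison asks how many of these cells the ascites of each arm held. Rora/Il18r1 T-lineage cells made up 5.06, 6.28, 6.47 and 4.20% of the kept ascites cells in treated mice 1 to 4, and 1.67, 2.0, 1.90 and 2.74% in vehicle mice 1 to 4. These were 34, 44, 43 and 34 cells in treated mice and 14, 17, 15 and 30 cells in vehicle mice. The lowest treated mouse was above the highest vehicle mouse. The 95% Wilson intervals ran from 3.02 to 5.82% in the lowest treated mouse and from 1.93 to 3.88% in the highest vehicle mouse, so the intervals of these 2 mice overlapped. The means were 5.5% ± 1.07 in treated and 2.08% ± 0.463 in vehicle mice (SD, n = 4 each), a difference of 3.42 percentage points (exact two-sided permutation p = 0.0286, the smallest that 4 against 4 mice allow). A cluster of these same cells was already known to differ between the arms, so the value is a restatement by a fixed rule and not separate evidence.

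The choice of denominator mattered. As a share of T-lineage cells, Rora/Il18r1 cells were 31.5, 40.4, 36.1 and 10.6% in treated mice and 15.9, 23.0, 28.3 and 13.3% in vehicle mice. The arms overlapped because treated mouse 4, with 321 T-lineage cells, was the lowest of all 8 (difference 9.53 percentage points, exact permutation p = 0.257). Requiring both Rora and Il18r1 in a cell gave a difference of 2.17 percentage points (exact permutation p = 0.0571), again with overlap. Requiring at least 2 T cell UMIs and fewer than 3 UMIs of Lyz2, S100a8 and S100a9 left out most of the cells. The share was then 1.42% ± 0.401 in treated and 0.405% ± 0.224 in vehicle mice, without overlap (exact permutation p = 0.0286). Depth also differs between mice, and with every cell thinned to 2000 UMIs the share was 2.87% ± 1.13 in treated and 0.932% ± 0.133 in vehicle mice (exact permutation p = 0.0286). In spleen the cells were 3.32, 2.91 and 4.71% of kept cells in treated mice 2 to 4, and 3.46, 3.42 and 3.51% in vehicle mice 1 to 3. The spleen values of the treated mice lay on both sides of those of the vehicle mice. Blood gave 2, 4 and 6 such cells in treated mice and 5, 1 and 4 in vehicle mice, too few to compare.

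**Figure D2:**
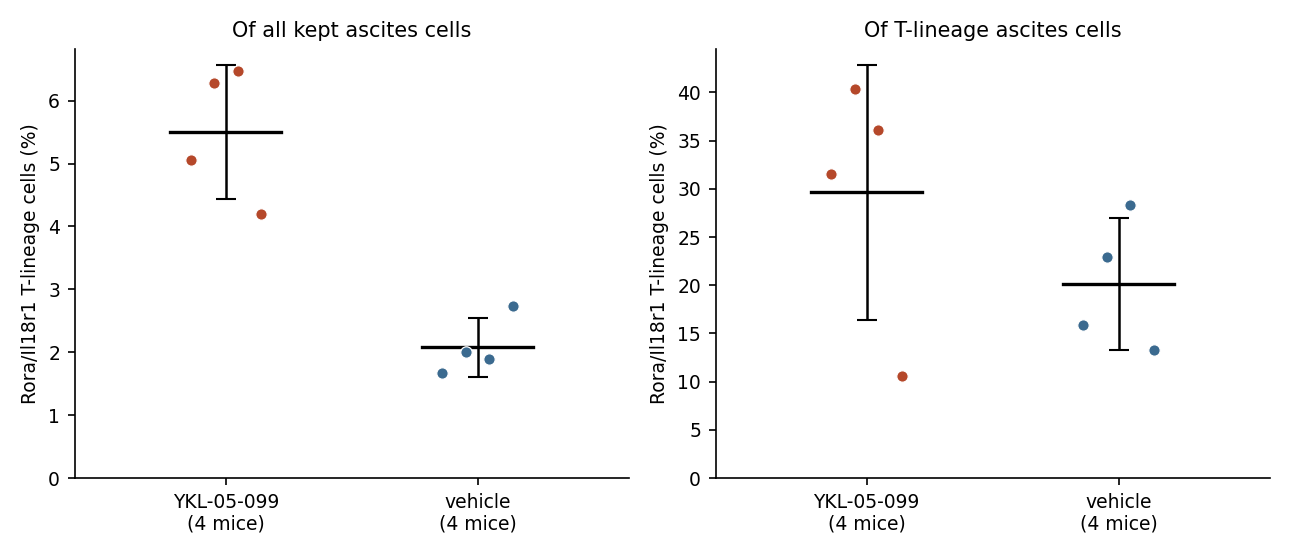
Rora/Il18r1 T-lineage cells in ascites per mouse (points) with the mean and SD of each arm, as a percent of all kept cells (left) and of T-lineage cells (right). The arms are apart on the left and overlap on the right, where treated mouse 4 is the lowest at 10.6%.

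The makeup of the population was compared at equal depth, as the expected share of cells with a UMI when each cell is thinned to 2000 UMIs (1 shallower cell was left out). Il1rl1 was found in 8.18, 9.0, 8.18 and 6.54% of the Rora/Il18r1 cells of treated mice, against 0, 0, 1.81 and 3.11% in vehicle mice. No vehicle mouse reached the lowest treated mouse. The difference was 6.74 percentage points (exact permutation p = 0.0286). Its adjusted p over the 5 subsets was 0.143, so it did not pass the correction. With 4 against 4 mice no smaller p than 0.0286 is possible, so a subset apart on its own could not have passed. Unthinned, these were 20 Il1rl1 cells of 155 in treated mice and 2 of 76 in vehicle mice, and the 0 of 14 cells in vehicle mouse 1 allows a share of up to 21.4%.

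Cd4 was found in 28.0, 16.1, 29.7 and 22.8% of cells in treated mice and in 6.18, 15.6, 24.2 and 10.8% in vehicle mice, and the arms overlapped. Cd8a stood at 11.6, 6.17, 1.08 and 8.24% in treated mice and at 27.1, 9.87, 9.96 and 17.6% in vehicle mice, also with overlap. The mean differences were 9.95 percentage points for Cd4 (exact permutation p = 0.114) and -9.38 for Cd8a (exact permutation p = 0.0857), each with an adjusted p of 0.179. Trdc averaged 5.52% ± 2.37 in treated and 8.34% ± 5.62 in vehicle mice, and Foxp3 1.86% ± 1.59 and 0.293% ± 0.586 (exact permutation p = 0.486 and p = 0.143, n = 4 each). None of the 5 subset shares passed the correction. Without thinning, the mean difference was 22.3 percentage points for Cd4 and -16.3 for Cd8a, so the mixture compared between the arms below was not shown to be equal. Fewer cells of a subset and less RNA per cell cannot be told apart where cells are summed.

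**Figure D3:**
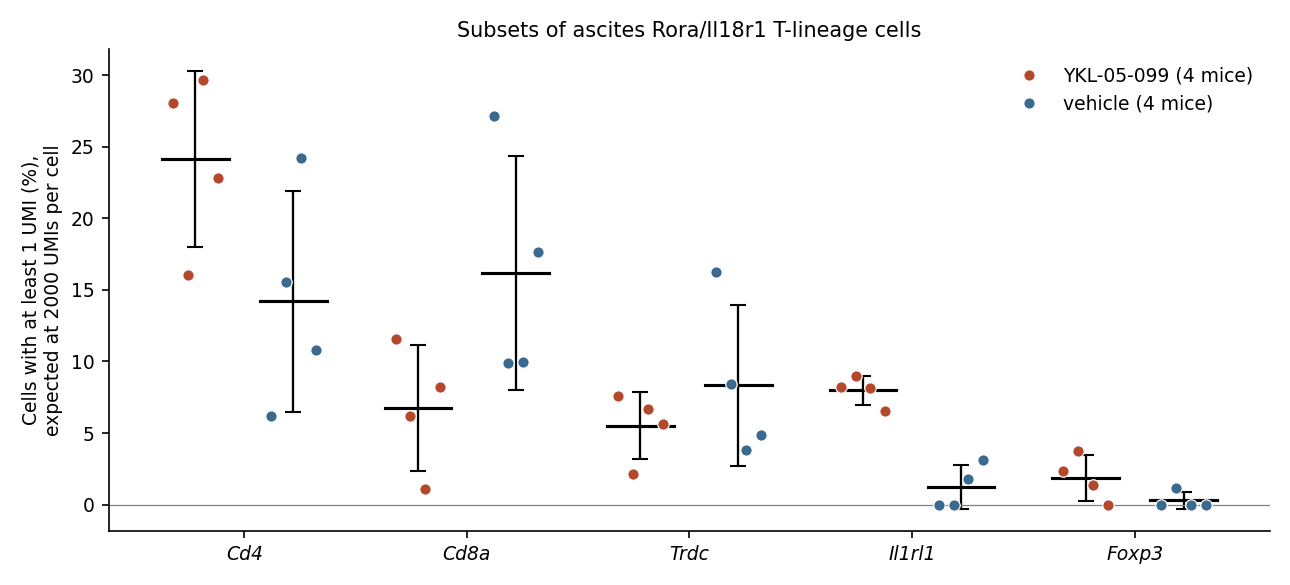
Expected percent of Rora/Il18r1 T-lineage cells with a UMI of Cd4, Cd8a, Trdc, Il1rl1 or Foxp3 when each cell is thinned to 2000 UMIs, per mouse (points) with the mean and SD of treated and vehicle mice. The arms are apart for Il1rl1 and overlap for the other 4 genes.

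The next question was which genes differed with treatment inside the population. With mice of at least 20 cells, 4 treated mice and only vehicle mouse 4 could enter, and edgeR called 4 of 4471 genes (0.0895%), 2 higher (0.0447%) and 2 lower (0.0447%). Ramp3 (log2 change 3.17) and Tmem64 (3.09) were higher, and Ccl5 (-1.96) and Itga4 (-1.84) lower, with the lone vehicle mouse assumed to vary like the treated ones. A minimum of 10 cells let all 8 mice in and called 15 of 2533 genes (0.592%), 14 higher (0.553% of genes) and 1 lower (0.0395%). Values below come from these 8 mice, with adjusted p from edgeR's quasi-likelihood test over the 2533 genes. An unadjusted p under 0.05 was reached by 232 genes, and 124 genes (4.90%) did not overlap between the arms, 74 higher (2.92%) and 50 lower (1.97%) in treated mice.

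Among genes of the cyclic AMP and CREB pathway, Crem, the modulator of cyclic AMP-responsive transcription, stood at 140, 169, 254 and 223 CPM in treated mice and at 12, 8.89, 0 and 53.0 CPM in vehicle mice. No vehicle mouse reached the treated range. The log2 change was 2.98 (SE 0.45, adjusted p = 0.00111). Pde4d, a phosphodiesterase that degrades cyclic AMP, was at 68.0, 94.2, 79.1 and 154 CPM in treated mice against 12, 17.8, 21.9 and 15.9 CPM in vehicle mice, and was higher by 2.47 (SE 0.45, adjusted p = 0.00366). These were the only 2 of 19 tested genes of a CREB and SIK list to pass, and the median of the list was 0.03 against -0.01 for all genes. The target gene Sik1 was at 93.5, 82.5, 138 and 85.8 CPM in treated and 120, 133, 219 and 74.2 CPM in vehicle mice, with overlap (log2 change -0.34, adjusted p = 0.857). Sik3 gave 0.16 (adjusted p = 0.941), Per1 -0.56 (adjusted p = 0.486) and the NR4A receptor gene Nr4a2 -1.05 (adjusted p = 0.345), so the list as a whole did not move 1 way.

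The largest difference was in Ramp3, a partner protein of the calcitonin receptor-like receptor. Ramp3 was at 221, 236, 230 and 286 CPM in treated mice and at 12, 0, 11 and 26.5 CPM in vehicle mice, with 229 against 7 UMIs. The treated mice were close to each other and all far above the vehicle mice (log2 change 4.0, SE 0.40, adjusted p = 5.09e-07). A UMI of Ramp3 was found in 47.7% of treated and 6.58% of vehicle Rora/Il18r1 cells. Rgs2, which limits signalling by G protein-coupled receptors, was at 489, 573, 471 and 292 CPM in treated and 239, 320, 165 and 212 CPM in vehicle mice. Here treated mouse 4 fell inside the vehicle range (log2 change 0.97, SE 0.23, adjusted p = 0.0410), and the call was lost in 6 of 8 fits that left out 1 mouse (highest adjusted p = 0.162).

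Some other called genes encode surface receptors. Il1rl1 was at 76.5, 78.5, 89.4 and 85.8 CPM in treated and 0, 0, 11 and 31.8 CPM in vehicle mice. The treated mice hardly differed among themselves, and all exceeded the vehicle mice (log2 change 2.46, SE 0.51, adjusted p = 0.0123). This rested on 79 against 7 UMIs, found in 12.9% of treated and 2.63% of vehicle cells. The share of Il1rl1 cells given above did not pass its own correction. Tnfrsf18 was at 336, 365, 316 and 303 CPM in treated and 108, 107, 98.7 and 159 CPM in vehicle mice, again without overlap (1.43, SE 0.23, adjusted p = 0.00111). Slamf1, a homophilic receptor of lymphocytes, averaged 84.4 ± 23.4 CPM in treated and 24.8 ± 7.06 CPM in vehicle mice (log2 change 1.85, adjusted p = 0.0271). Il1rl1 was the only 1 of 11 tested cytokine receptor genes to pass, and Tnfrsf18 the only 1 of 6 tested checkpoint and costimulatory genes. Icos gave 1.36 (adjusted p = 0.119), Ctla4 -0.65 (adjusted p = 0.836), Il7r 0.55 (adjusted p = 0.350) and Il18rap -1.03 (adjusted p = 0.178), none of which passed. Icos was called without treated mouse 4, without vehicle mouse 3, with at most 5% mitochondrial UMIs and without a filter on low counts.

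Itga4, the α4 integrin chain that binds VCAM-1 and fibronectin, was the only called gene that was lower in treated mice. It was at 127, 134, 124 and 217 CPM in treated and 406, 373, 230 and 530 CPM in vehicle mice. The highest treated mouse lay just under the lowest vehicle mouse (log2 change -1.40, SE 0.25, adjusted p = 0.00332). Without vehicle mouse 4 its adjusted p was 0.0535.

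Nr3c1, the glucocorticoid receptor, was higher in treated mice. It was at 280, 389, 244 and 212 CPM in treated and 120, 107, 87.8 and 132 CPM in vehicle mice, without overlap (log2 change 1.31, SE 0.26, adjusted p = 0.00780). No gene of a list of 9 glucocorticoid-responsive genes, 6 of them tested, passed.

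Other called genes have other roles. Tmem64, a membrane protein of calcium signalling, averaged 226 ± 62.1 CPM in treated and 47.4 ± 25.1 CPM in vehicle mice (log2 change 2.4, adjusted p = 0.000259). Tnfaip8, a TNF-induced regulator of survival, averaged 221 ± 52.2 and 85.4 ± 17.7 CPM (1.43, adjusted p = 0.00780). Got1, the cytosolic aspartate aminotransferase, averaged 132 ± 32.2 and 38.3 ± 29.6 CPM (1.80, adjusted p = 0.0252). In Tmem64, Tnfaip8 and Got1 no treated mouse overlapped a vehicle mouse. Jun, an AP-1 subunit, averaged 1697 ± 204 CPM in treated and 1064 ± 288 CPM in vehicle mice with 1 overlap (0.66, adjusted p = 0.0410), and it was the only 1 of 18 tested AP-1 and immediate early genes to pass. Its call was lost in 6 of 8 fits that left out 1 mouse (highest adjusted p = 0.122). Dgat1, an enzyme of triglyceride synthesis named here after its values were seen, averaged 211 ± 29.9 and 83.2 ± 66.1 CPM with overlap (1.42, adjusted p = 0.0348).

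**Figure D4:**
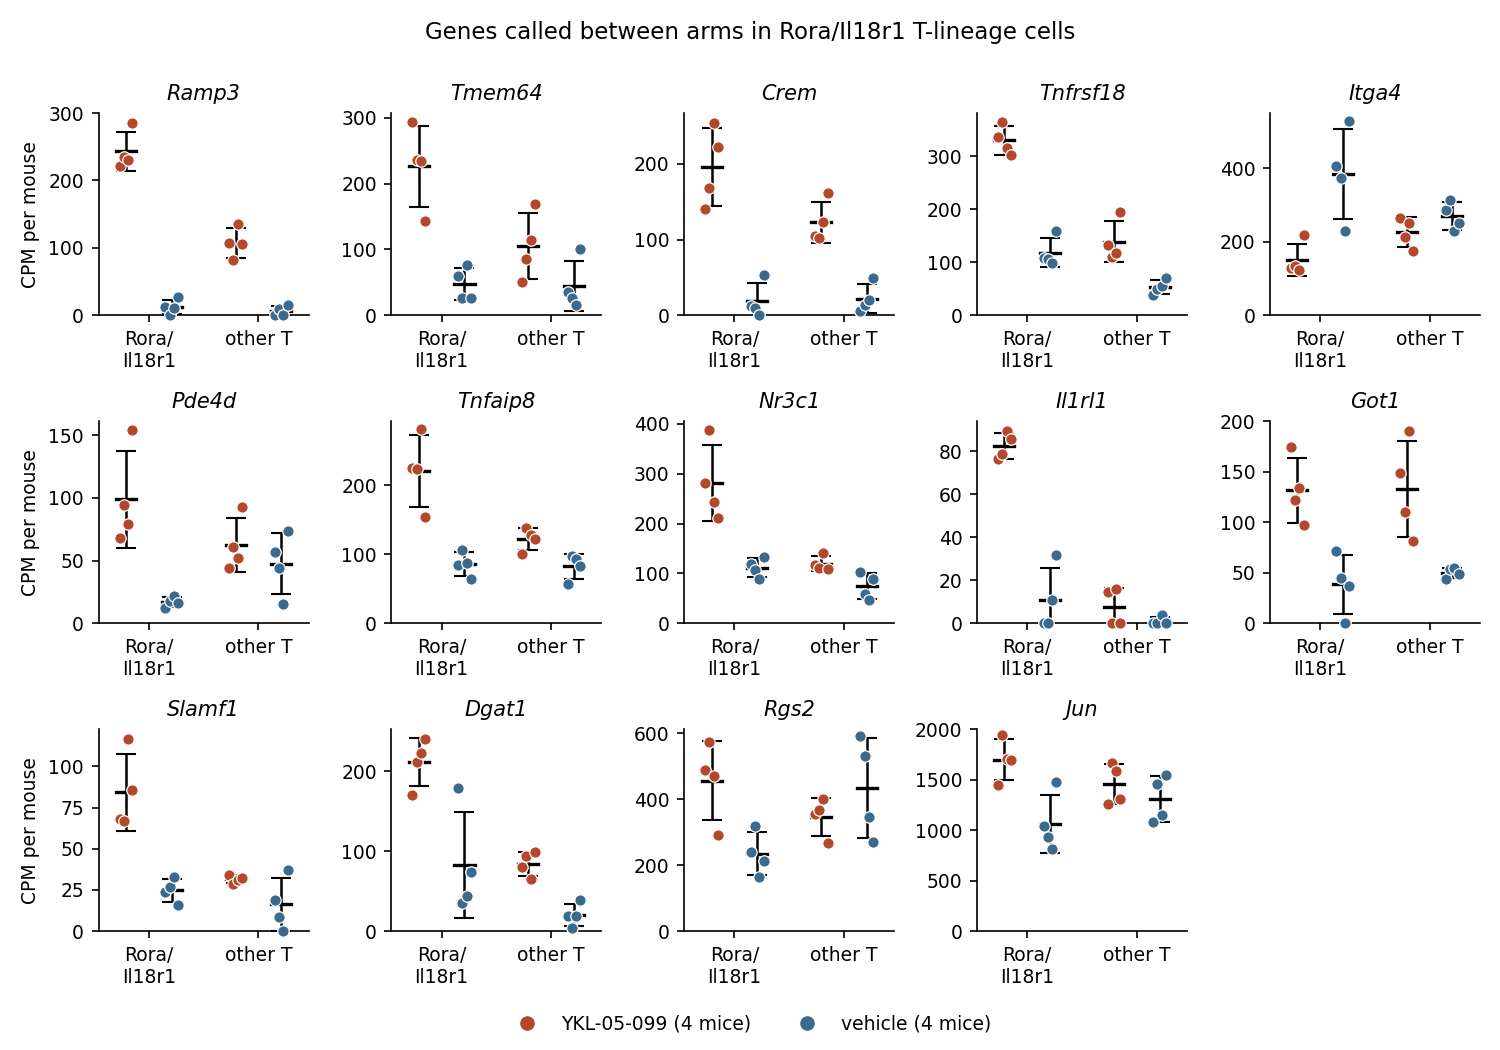
CPM per mouse (points, with mean and SD) of 14 genes called between treated and vehicle mice in Rora/Il18r1 T-lineage cells, shown for these cells and for the other ascites T-lineage cells of the same mice. Ramp3, Crem and Tnfrsf18 are apart between the arms in both populations, Pde4d and Itga4 in the Rora/Il18r1 cells only, and Rgs2, Jun and Dgat1 overlap in the Rora/Il18r1 cells.

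Genes that mark the population or its effector types did not pass with all 8 mice. Gata3 was at 306, 287, 316 and 137 CPM in treated and 83.7, 160, 76.8 and 164 CPM in vehicle mice. Only treated mouse 4 fell inside the vehicle range (log2 change 1.05, adjusted p = 0.119), and without that mouse, or without a filter on low counts, Gata3 was called. Ctla2a gave 0.65 (adjusted p = 0.836) and Ikzf2 0.44 (adjusted p = 0.851). Ifng (0.15, adjusted p = 0.960) and Tnf (0.07, adjusted p = 0.971) were close to 0, while Tcf7, a factor of naive and memory T cells, gave -0.60 (adjusted p = 0.458). With a SE of 0.43 for Ifng, equal levels are not shown.

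Genes of CD8 and cytotoxic cells did not pass edgeR's test with all 8 mice, but some did in alternatives. Ccl5 was at 1232, 785, 908 and 1212 CPM in treated and 7900, 2515, 2030 and 4026 CPM in vehicle mice. The arms did not overlap, but the spread among vehicle mice was wide (log2 change -1.97, adjusted p = 0.187). Cd8a was at 63.7, 35.3, 6.88 and 45.7 CPM in treated and 263, 79.98, 87.8 and 117 CPM in vehicle mice, also apart (-1.83, adjusted p = 0.121). Ccl5 was called by the DESeq2 Wald test, without vehicle mouse 1 and in the fit of mice with at least 20 cells. Cd8a was called without treated mouse 1, and Cd8a, Cd8b1 and Gzmk without a filter on low counts. Of 8 tested type 1 and cytotoxic genes 0 passed and 6 had a negative sign, with a median of -0.59 against -0.01 for all genes. Of 13 tested heat shock and folding genes 0 passed and 12 had a positive sign, with a median of 0.44. Hsph1 led these with 1.12 (adjusted p = 0.154). In these lists 3 and 6 genes had an unadjusted p under 0.05.

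Several cytokine and receptor genes fell under the low-count filter with all 8 mice. Tnfrsf4, the costimulatory receptor OX40, was at 72.2, 94.2, 144 and 22.9 CPM in treated and 0, 8.89, 11 and 10.6 CPM in vehicle mice, with 87 against 4 UMIs. Pdcd1, the checkpoint receptor PD-1, was at 55.2, 55.0, 41.3 and 57.2 CPM in treated and 0, 0, 11 and 15.9 CPM in vehicle mice. Both were apart between the arms on few UMIs. Without the filter Tnfrsf4, Pdcd1 and Areg were among 56 called genes, and with it Tnfrsf4 was also called without treated mouse 4, vehicle mouse 1 or vehicle mouse 3. Areg had 24 UMIs in treated and 0 in vehicle mice, where 0 allows up to 6.30 CPM over the summed vehicle cells. It was at 4.25, 55.0, 27.5 and 5.72 CPM in treated mice 1 to 4, so mice 2 and 3 held most of it. Il5 had 11 and 0 UMIs, and Calca 78 and 1, with treated mouse 2 at 283 CPM and the other treated mice at 0 to 12.7. Il17a had 13 UMIs in treated and 19 in vehicle mice.

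The number of calls varied with the cells and mice that entered. With cells holding a Cd8a or Cd8b1 UMI left out, 4 treated and 3 vehicle mice remained, 1867 genes were tested and 3 were called, Ramp3, Tmem64 and Dgat1. The changes of the named genes kept their sign there, such as 2.47 for Crem (adjusted p = 0.0971), 2.27 for Pde4d (adjusted p = 0.133) and -1.22 for Itga4 (adjusted p = 0.0971). With Il1rl1 cells left out, 12 genes were called, including Crem at 3.11 and Tnfrsf18 at 1.22. Leaving out each mouse in turn, 7 of the 15 stayed called in all 8 fits, among them Ramp3, Tmem64, Crem, Tnfrsf18, Pde4d and Nr3c1. Il1rl1 was lost without treated mouse 3 or vehicle mouse 2 (highest adjusted p = 0.0731), and Slamf1 in these fits and without vehicle mouse 4 (highest adjusted p = 0.182). Itga4 and Tnfaip8 were each lost without vehicle mouse 4, with an adjusted p of 0.0845 for Tnfaip8. Got1 was lost in 4 of 8 fits, without treated mouse 1 or 3 or vehicle mouse 2 or 4. Rgs2, Jun and Dgat1 were lost in 6 of 8 fits each: Rgs2 stayed called without treated mouse 4 or vehicle mouse 2, Jun without treated mouse 1 or vehicle mouse 4, and Dgat1 without treated mouse 1 or vehicle mouse 1. By DESeq2, Jun, Rgs2 and Slamf1 were not called. With at most 5% mitochondrial UMIs, 4 treated and 3 vehicle mice remained and 12 genes were called, 5 of the 15 among them. With hashtags assigned by HTODemux, 10 of the 15 could be tested and 8 of these were called. Pde4d, Nr3c1 and Il1rl1 were called in neither version. Without vehicle mouse 3 the count was 28.

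The other T-lineage cells of the same mice served as a comparison. There, 1 of 4645 genes was called, Ramp3 again, at 108 ± 22.2 CPM in treated and 6.02 ± 7.41 CPM in vehicle mice (log2 change 3.66, adjusted p = 0.00822), and 253 genes had an unadjusted p under 0.05. Of the 15 genes, 14 were tested in these cells and 13 had the same sign as in the Rora/Il18r1 cells. Crem was 2.21 there (adjusted p = 0.0894) and Tnfrsf18 1.36. The difference between the populations was tested as an interaction in 4166 genes, of which 4 passed (0.0960%), 2 positive (0.0480%) and 2 negative (0.0480%). Of the 15 genes only Rgs2 did, with an interaction of 1.22 (adjusted p = 0.0326). Pde4d (2.29, adjusted p = 0.0598) and Itga4 (-1.10, adjusted p = 0.207) did not pass, and for Crem the interaction was 0.82 with a SE of 0.53, so a treatment response particular to the Rora/Il18r1 cells was not shown for these genes.

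Rgs2 averaged 456 ± 118 CPM in treated and 234 ± 65.1 CPM in vehicle Rora/Il18r1 cells, and 347 ± 57.0 and 434 ± 152 CPM in treated and vehicle other T-lineage cells. The signs were thus opposite, although the arms overlapped in both populations. In the other T-lineage cells the log2 change was -0.33 (SE 0.24, edgeR adjusted p = 0.998), so a decrease there was not shown. Cd8b1, the β chain of CD8, had an interaction of -1.69 (adjusted p = 0.0424) and Lsp1, an actin-binding protein of leukocytes, one of -1.08 (adjusted p = 0.0464). The neutrophil gene S100a9 had an interaction of 3.08 (adjusted p = 0.0326), but it was not called in the other T-lineage cells alone and fell under the low-count filter in the Rora/Il18r1 cells alone. It averaged 21.8 ± 6.17 CPM in treated and 14.9 ± 6.67 CPM in vehicle Rora/Il18r1 cells, with overlap. In the other T-lineage cells it averaged 80.7 ± 78.7 CPM in treated and 421 ± 96.5 CPM in vehicle mice, without overlap (log2 change -2.23, adjusted p = 0.389). The 6 neutrophil markers summed to 57.1 to 338 CPM in the other T-lineage cells of treated mice and to 730 to 1301 CPM in those of vehicle mice. Without treated mouse 1, 2 or 3 the count of passing interactions was 0, without vehicle mouse 2 it was 1, and without treated mouse 4, vehicle mouse 3 or vehicle mouse 4 it was 8 to 13. With mice of at least 20 cells only vehicle mouse 4 represented its arm, and 6 of 5564 interactions passed (0.108%), 2 positive (0.0359%) and 4 negative (0.0719%).

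Outside the T lineage, Crem stood at 151 CPM in treated and 24.9 CPM in vehicle B cells and at 95.02 and 11.1 CPM in C1q-positive macrophages. Ramp3 was low in them, at 10.3 and 6.87 CPM in treated and vehicle B cells and 19.0 and 7.44 CPM in the macrophages. B cells and macrophages thus held little Ramp3, and these values were not tested.

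The rule was drawn on ascites, so the same rule in spleen gave cells it had not used, 149 cells from 6 spleens. Against 592 other spleen T-lineage cells of the same mice, 108 of 3739 genes were called (2.89%), 46 higher (1.23%) and 62 lower (1.66%) in the Rora/Il18r1 cells. Ascites and spleen were different libraries, so levels between them cannot be told apart from library effects.

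Of 12 tested cytokine receptor genes, 4 were higher in the Rora/Il18r1 cells of spleen. Il2rb, the shared β chain of the IL-2 and IL-15 receptors, ranged over 303 to 450 CPM in Rora/Il18r1 cells and over 109 to 176 CPM in the other T-lineage cells. Every spleen had more in the Rora/Il18r1 cells, with no overlap (log2 difference 1.16, SE 0.15, adjusted p = 3.89e-06). Il18rap averaged 64.2 ± 31.8 CPM in Rora/Il18r1 cells and 21.6 ± 7.77 in the others (1.52, adjusted p = 0.000556). Il7r was also higher in 6 of 6 spleens (1.02, adjusted p = 0.0410), as was Ifngr1 (0.83, adjusted p = 0.000444). The Il7r call was lost without treated mouse 4, vehicle mouse 1 or vehicle mouse 3 (highest adjusted p = 0.159).

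Some genes of innate-like and type 1 T cells were higher as well, and others lower. Klrk1, the activating receptor NKG2D, averaged 206 ± 49.9 CPM in Rora/Il18r1 cells and 68.1 ± 31.1 CPM in the others (1.63, adjusted p = 0.000448). Cxcr6, a chemokine receptor of tissue-homing T cells, averaged 151 ± 61.9 and 49.1 ± 30.6 CPM (1.6, adjusted p = 0.00699). With Cd160, these were 3 of 6 tested markers of NKT and innate-like αβ T cells, and all 6 had a positive sign. Tbx21, the T-bet factor of type 1 responses, gave 1.24 (adjusted p = 0.0264), Ifng 1.07 (adjusted p = 0.0256) and Cxcr3 0.93 (adjusted p = 0.00819), while Gzma, a granzyme gene, was lower (-2.68, adjusted p = 7.19e-07). Of 11 tested type 1 and cytotoxic genes these were 3 higher and 1 lower, and of 7 tested NK and ILC1 markers Tbx21 was higher and Gzma and Tyrobp lower. Leaving out 1 spleen in turn, Klrk1 and Gzma stayed called in all 6 fits, while Cxcr6 and Cxcr3 were lost without treated mouse 4 (adjusted p = 0.0548 and 0.0687). Tbx21 stayed called without treated mouse 3 or 4, Ifng without treated mouse 3 and Cd160 without vehicle mouse 2, with highest adjusted p of 0.152, 0.189 and 0.142. Id2, a transcriptional regulator of innate and effector lymphocytes, averaged 499 ± 129 and 231 ± 67.5 CPM (1.07, adjusted p = 4.04e-05).

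Of the markers that the rule did not use, Gata3 was higher in 6 of 6 spleens, at 47.8, 92.1, 86.7, 31.9, 75.0 and 84.3 CPM in Rora/Il18r1 cells against 41.7, 32.1, 48.3, 21.7, 21.0 and 24.1 CPM in the others (treated mice 2 to 4, then vehicle mice 1 to 3). The difference was 1.08 on the log2 scale (SE 0.26, adjusted p = 0.0163), and the call was lost without treated mouse 3, vehicle mouse 2 or vehicle mouse 3 (highest adjusted p = 0.0884) and by the DESeq2 Wald test. Ctla2a (0.72, adjusted p = 0.168) and Ikzf2 (0.49, adjusted p = 0.232) were higher in 5 of 6 spleens each and did not pass. Crem gave 0.44 (adjusted p = 0.758), and 0 of 15 tested CREB and SIK genes passed.

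**Figure D5:**
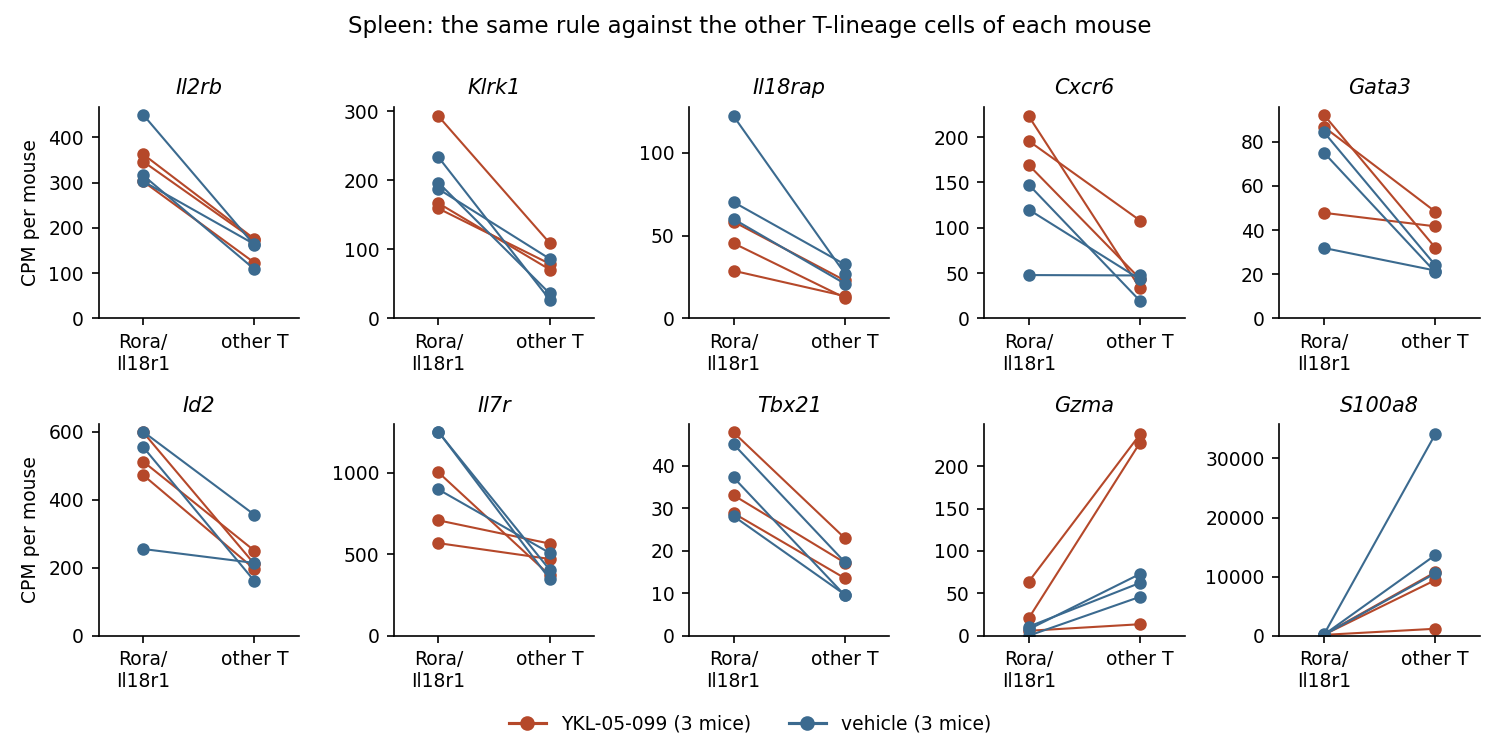
CPM of 10 genes in Rora/Il18r1 T-lineage cells and in the other T-lineage cells of each of the 6 spleens, with a line joining the 2 populations of a mouse. Il2rb, Cxcr6 and Gata3 are higher in the Rora/Il18r1 cells of all 6 spleens.

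Most of the largest differences in the lower direction were neutrophil and macrophage genes. S100a8 averaged 161 ± 28.9 CPM in Rora/Il18r1 cells and 13262 ± 11036 CPM in the other T-lineage cells of spleen, and Lyz2 110 ± 14.9 and 2033 ± 1522 CPM. All 3 tested neutrophil markers and both tested macrophage markers were lower in the Rora/Il18r1 cells. Without treated mouse 4 or vehicle mouse 2 the S100a8 call was lost (highest adjusted p = 0.0633), and the Lyz2 call in these fits and without treated mouse 2 or vehicle mouse 1 (highest adjusted p = 0.0976). The other T-lineage cells needed only 1 T cell UMI, and with at least 2 T cell UMIs and fewer than 3 myeloid UMIs in both populations only 1 treated and 1 vehicle spleen remained and 11 genes were called. In those 2 spleens several genes changed sign, with Il2rb at -0.20, Cd160 at -0.94, S100a8 at 0.092 and Tyrobp at 0.61. The part of myeloid transcripts in the other differences was not tested.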

How the data were processed

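The authors deposited raw UMI counts per gene and hashtag for each barcode of 2 droplet libraries, made with Cell Ranger 6.1.1 on mm10, per the file headers and the submitters' processing notes. Arm, mouse and tissue of each hashtag came from the deposited hashtag notes. A barcode was kept with 200 or more genes, 500 or more UMIs and no more than 10% mitochondrial UMIs, and when its top hashtag held at least 80% of at least 20 hashtag UMIs. Barcodes with mixed hashtags are left out by this rule, doublets within a mouse are not, and no doublet caller was run.

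Counts were summed per mouse and tested with edgeR 4.0.16 in R 4.3.3 (robust quasi-likelihood F test, TMM, filterByExpr), with Benjamini-Hochberg adjustment and a threshold of 0.05. DESeq2 1.42.0 and Seurat 5.3.0 (HTODemux) served alternatives. The other T-lineage cells met the same rule with no Rora or Il18r1 UMI. Interactions and spleen differences had the mouse as a block. Standard errors are the log2 change over the root of F. Shares were compared by exact two-sided permutation. The fits were tested on simulated data.

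Members, lists and tests were chosen with earlier results of these data known. The text names called genes with a logCPM of 5 or more whose arms did not overlap, at most 15 per direction, and up to 4 per list, beside a constant set that includes Gata3, Crem, Sik1 and Ifng. Alternatives, including leaving out each mouse, are given in the closing section. A called gene is not reported here.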

Additional observations from a re-analysis of the deposited data

Results flagged for a closer look

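Within the 40 groups of 4 mice checked, where chance flags about 1 in 20, single mice stood apart in 3. Itga4 in treated mice was 217 CPM in mouse 4, against 124, 127 and 134 CPM in the other treated mice. Tnfrsf18 in vehicle mice was 159 CPM in mouse 4, against 98.7, 107 and 108 CPM in the others. The thinned Foxp3 share in vehicle mice was 1.17% in mouse 2, from 1 cell, and 0 in the others.

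The treatment difference itself differed between Rora/Il18r1 cells and other T-lineage cells for 4 genes over all mice. The log2 interactions were 3.08 for S100a9, 1.22 for Rgs2, -1.69 for Cd8b1 and -1.08 for Lsp1 (edgeR adjusted p of 0.0326, 0.0326, 0.0424 and 0.0464). Lsp1 averaged 395 ± 76.7 CPM in treated and 582 ± 48.5 CPM in vehicle Rora/Il18r1 cells, and 485 ± 173 and 323 ± 47.6 CPM in the other T-lineage cells. Cd8b1 averaged 77.4 ± 41.4 and 180 ± 102 CPM in treated and vehicle Rora/Il18r1 cells.

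With at least 20 cells per mouse, where vehicle mouse 4 was alone in its arm, 6 interactions passed. They were 3.12 for Tmem176a, a membrane protein gene of the γδ T cell list, 1.55 for Satb1, a chromatin organiser of T cells, -8.73 for Gzma, -1.57 for Itga4, -1.55 for Lgals1, which encodes galectin 1, and -1.29 for S100a6, a calcium-binding protein. Of these, only Itga4 was also called for treatment alone, and none passed with all mice. Gzma in vehicle Rora/Il18r1 cells was 359 and 403 CPM in mice 1 and 4 and 0 in mice 2 and 3.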

How the results depend on the processing

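The share difference of 3.42 percentage points kept its sign under all alternatives run. It no longer passed as a share of T-lineage cells (9.53) or with both Rora and Il18r1 required (2.17), and leaving out a mouse gave 3.1 to 3.86 with 0.0571 as exact permutation p, which no split of 4 and 3 mice can go below. All 70 alternatives of the 5 subset shares kept their sign. They also kept their side of the threshold, but those with 4 and 3 mice could not have crossed it. With 4 against 4 mice a subset apart on its own could not have crossed it either, so staying there does not show stability. The treatment count with at least 20 cells per mouse was 4, and became 1 by the DESeq2 Wald test, 9 without a low-count filter, 15 with at least 10 cells and 4 to 14 without 1 mouse. With all 8 mice the count of 15 became 56 without a low-count filter, 8 with HTODemux, 3 without CD8 cells and 10 to 28 without 1 mouse. DESeq2 called 13, with 12 of the 15 among them. With at most 5% mitochondrial UMIs 12 genes were called, 5 of the 15 among them. All of the 15 that could be tested kept their sign in each alternative.

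The interaction count of 6 became 15 without a low-count filter, 1 by DESeq2 and 5 to 33 without 1 mouse. With all mice, the interaction count of 4 became 16 without a low-count filter, 0 by DESeq2 (89 genes at an unadjusted p under 0.05) and 0 to 13 without 1 mouse. The spleen count of 108 became 376 without a low-count filter, 67 by DESeq2, 11 with stricter T cell and myeloid limits, and 58 to 126 without 1 mouse (58 without treated mouse 4, 70 without vehicle mouse 2). Under the stricter limits Il2rb turned to -0.20, S100a8 to 0.092, Cd160 to -0.94 and Tyrobp to 0.61, with 2 spleens left. Where no cause is visible in fewer genes or mice, the cause was not tested.

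With the mouse number as a replicate block, 21 genes were called in place of 15, 14 of them shared. Ccl5, Cd8a and Cd8b1 were among the 7 gained. Deviations of same-numbered mice correlated at -0.07 to 0.14 over 2542 genes, and the labels give no shared litter or day, so the numbers were not taken to pair the mice.

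Not run, for lack of mice with enough cells, were the block, HTODemux, 5% mitochondrial, both-gene and 40-cell versions of the fit with at least 20 cells, versions without vehicle mouse 4, the both-gene and strict versions with all mice, blood alone, and Foxp3 against Trdc cells. Summed over an arm, a count of 0 allows up to 3.14 CPM in treated and 6.30 CPM in vehicle Rora/Il18r1 cells.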

Other observations

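Other gene groups also separated the Rora/Il18r1 T-lineage cells of spleen from the other T-lineage cells there. Neutrophil markers summed to 32606 CPM in those other cells and to 429 CPM in the Rora/Il18r1 cells. Macrophage markers summed to 2496 and 179 CPM. The part of these myeloid transcripts in the differences below was not tested. Gimap4 and Gimap3, GTPases of lymphocyte survival, averaged 504 ± 44.4 and 426 ± 83.9 CPM in the Rora/Il18r1 cells and 287 ± 44.5 and 282 ± 50.4 CPM in the others (log2 differences 0.78 and 0.55, edgeR adjusted p of 0.000424 and 0.0447). These were 2 of 8 tested GIMAP genes, and all 8 had a positive sign. The Gimap3 call was lost without treated mouse 4 or any 1 vehicle mouse (highest adjusted p = 0.302). Igfbp4, a gene of naive T cells, averaged 12.1 ± 10.7 CPM in the Rora/Il18r1 cells and 66.9 ± 23.9 CPM in the others, and Izumo1r, the folate receptor 4 of regulatory T cells, 32.1 ± 20.8 and 83.0 ± 27.0 CPM (-2.55 and -1.43, adjusted p of 3.23e-05 and 0.00376). Both were lower in 6 of 6 spleens. Tmem176a, which was at 340 CPM in the ascites Trdc cells, averaged 95.9 ± 55.9 CPM in the spleen Rora/Il18r1 cells and 31.7 ± 29.0 CPM in the others (1.62, adjusted p = 0.0441, lost without treated mouse 3 or any 1 vehicle mouse), while Trdc itself gave -0.26 (adjusted p = 0.958).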
